A study of Mus musculus with 6 samples.

Results

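Predicted genes with a Gm symbol are mouse gene models that carry a number in place of a functional name. The Gm genes described here are those left after the number ranges used for small RNA genes and for most unprocessed single-exon models were set aside by their symbols. They were chosen by symbol, with no measured value, and they made up 311 of 2652 genes in a table of METTL3-RIP against input. RNA was compared between 3 METTL3-RIP libraries and 3 input libraries of splenic NK cells from wild-type C57BL/6 mice, in order to find transcripts bound by METTL3. In both groups the NK cells had been expanded in vivo by hydrodynamic injection of a plasmid expressing IL-15 and collected 1 month later by sorting. Mouse age is not given in the labels, and the methods give an age range only for the mice of the study as a whole. Input was a part of the lysate that met no antibody, the rest was precipitated with an antibody against METTL3, and no mock precipitation was analysed here. Nothing in the labels says whether the 3 libraries of a group came from separate mice, so p-values measure the spread between these libraries.

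METTL3 is the catalytic subunit of the writer complex that places N6-methyladenosine on RNA, and its preferred sites carry a GGAC or related core. RNA immunoprecipitation recovers RNA held by a protein, directly or within a complex. Gm models gather transcripts of unlike kinds. Antisense RNAs are read from the strand opposite another gene, sense intronic RNAs lie within an intron of their host, processed pseudogenes are retrotransposed copies of mRNAs, and TEC is the annotation's label for models that still await experimental evidence. Others lie in tandem repeats. Satellite repeats of pericentromeric heterochromatin are the best known of these in mouse, and they are transcribed from both strands.

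The table holds only genes that its authors had found higher in METTL3-RIP. The direction of every difference below was therefore fixed by that choice. In the limma test on log2(RPKM + 1) with Benjamini-Hochberg adjustment over the table, 311 of 311 predicted Gm genes were past the adjusted p threshold of 0.05, beside 99.9% of all listed genes. In all 311 every METTL3-RIP value lay above every input value, beside 99.8% of all listed genes. These counts do not set the predicted Gm genes apart from the table. Their median log2 fold change was 1.69, against 1.72 over all listed genes. When each library was centred on the median of the table, which took out that common shift, the median over predicted Gm genes was -0.069 against -0.036 over all listed genes, and 109 of 311 were called higher and 117 lower, beside 39.4% of all listed genes higher and 42.2% lower. Quantile normalization called 49 higher and 3 lower, beside 6.41% and 5.73% of all listed genes. The near-equal medians belong to the log2(RPKM + 1) scale, and with voom on recovered reads they were 4.50 and 3.89, with a pseudocount of 0.1 3.47 and 3.23 and with quantile normalization 0.11 and -0.11. Of 39 Gm genes named by rule, Gm27694, Gm20417, Gm17305, Gm29585, Gm20511, Gm11131, Gm44292, Gm45223, Gm29103, Gm15472, Gm26224, Gm11583 and Gm15886 had a negative fitted difference under quantile normalization, past the threshold only for Gm29585 (limma adjusted p = 0.0204), with adjusted p from 0.0634 to 0.742 in the other 12. Under centring the differences of Gm29480 and Gm10390 were negative and past the threshold (limma adjusted p = 0.0147 and 0.0395), and that of Gm45223 was negative without passing it (0.290). Gm29480, which had no input read, was instead higher and past the threshold under quantile normalization (0.54, limma adjusted p = 0.0101). With voom Gm29480 and Gm10390 had 6.48 and 4.17, above the 3.89 over all listed genes. Their sign under centring belongs to the log2(RPKM + 1) scale, which compresses low genes. A further 11 kept a positive difference but lost their call under quantile normalization, namely Gm45053, Gm340, Gm44574, Gm28373, Gm17024, Gm26448, Gm10974, Gm10722, Gm4017, Gm26749 and Gm10390, as did Gm11583 and Gm12229 under centring. Of the 39 named genes, 34 stayed called higher under centring and 15 under quantile normalization. A call lost or turned under a rescaling depends on the scaling used.

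Reads were spread unevenly over the group. The METTL3-RIP libraries held 9401509 to 11809744 reads each and the input libraries 14710607 to 15992386, as derived from the RPKM values. Predicted Gm genes held 0.829%, 0.903% and 0.823% of the reads of METTL3-RIP replicates 1, 2 and 3, and 0.01998%, 0.01996% and 0.01802% of the reads of input replicates 1, 2 and 3. All listed genes together held 14.3%, 15.5% and 13.3% of the METTL3-RIP reads and 1.05%, 0.986% and 0.816% of the input reads. A larger share in METTL3-RIP was thus common to the table. A single gene, Gm26917, held 58.2% to 61.1% of the predicted Gm reads of METTL3-RIP libraries and 7.23% to 9.32% of those of input libraries. The 12 satellite-like genes described below held a further 9.05% to 11.2% in METTL3-RIP and 3.10% to 4.54% in input. The other 298 genes accounted for 0.255% ± 0.0174 (SD, n = 3) of METTL3-RIP reads and 0.0171% ± 0.00118 (SD, n = 3) of input reads. Without Gm26917 the mean share of METTL3-RIP reads was 0.342% in place of 0.852%. Few input reads fell on most of the others, although the input libraries were the deeper ones. The median gene had 102 METTL3-RIP reads and 6 input reads summed over 3 libraries. No read in any input library was found for 41 of 311 (13.2%), against 6.22% of all listed genes and 3.75% of those without a Gm symbol. Genes without a Gm symbol are longer (median 6636.5 exon bases against 1447) and deeper (median 546 METTL3-RIP reads). The part of length and depth in these shares was not tested. None of the 10 NK cell markers examined, such as Ncr1 and Prf1, was in the table, nor was any of the 7 T cell, 6 B cell, 7 myeloid and 5 erythroid markers, so the labelled cell type could not be checked from these values.

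**Figure D1:**
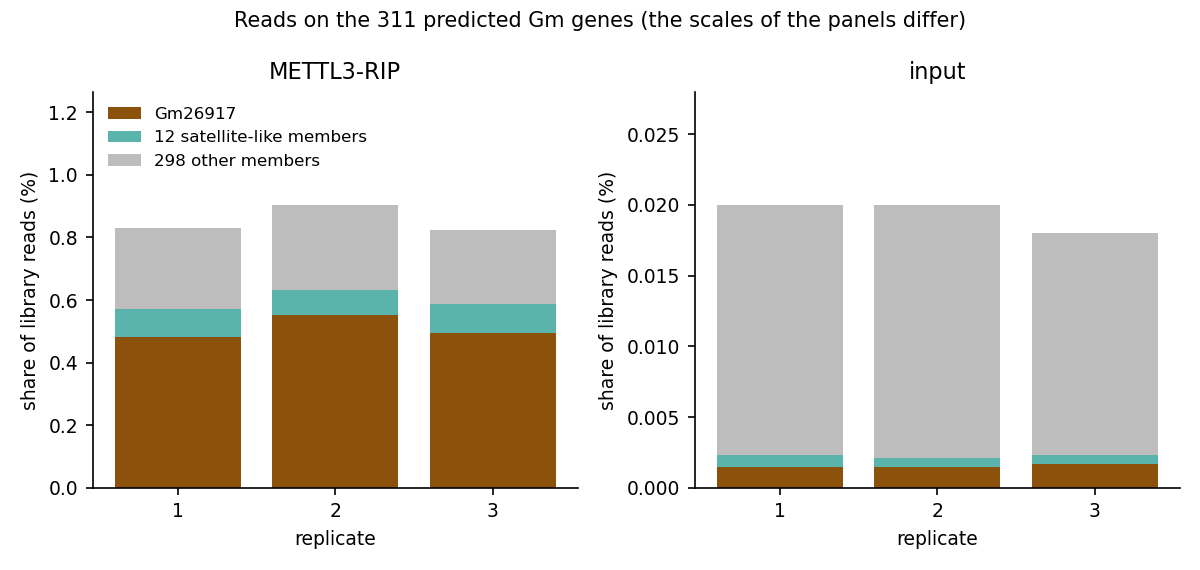
Share of all library reads (%, vertical axis) on the 311 predicted Gm genes in each replicate, split into Gm26917, the 12 satellite-like genes and the 298 others, with METTL3-RIP on the left and input on the right on a separate scale. Gm26917 forms 58.2% to 61.1% of the METTL3-RIP bars and 7.23% to 9.32% of the input bars.

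Gm26917, annotated by GENCODE as a lincRNA of 1 exon and 3329 bases, had the highest mean METTL3-RIP level of the table, a level it shared, within the spread between libraries, with Gm27694 described further on. It read 1448, 1657 and 1487 RPKM in METTL3-RIP replicates 1, 2 and 3 and 4.34, 4.41 and 5.04 RPKM in the input replicates. The lowest METTL3-RIP library was far above the highest input library, and the libraries of each group lay close together. The ratio of mean RPKM was 333, and the log2 fold change was 8.10 ± 0.18 (SE, n = 3 per group, limma adjusted p = 1.03e-07). It was 6.34 after centring and 4.17 after quantile normalization. The gene lies at chr17:39843013-39846341 on the plus strand of GRCm38. Just downstream, after a gap of 12 bases on the same strand, starts Rn18s-rs5, an 18S ribosomal RNA gene copy at chr17:39846354-39848202. In ribosomal DNA the sequence before 18S is the external transcribed spacer, which is part of the precursor rRNA and is removed from it. The junction is shown because it places the gene that dominates the reads. It runs from chr17:39846302 to chr17:39846373 and holds the last 40 bases of Gm26917, the gap, and in capitals the first 20 bases of Rn18s-rs5.
Gm26917 to Rn18s-rs5: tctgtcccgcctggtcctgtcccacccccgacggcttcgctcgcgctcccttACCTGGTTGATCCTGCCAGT
Of the exonic 31-mers of Gm26917, 1.82% occurred elsewhere in the assembly. That share counts only copies that the assembly holds, and ribosomal DNA arrays are largely missing from it. The label names poly(A) RNA as the molecule, and how rRNA was removed was not tested.

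The second feature was a family of repeats. Among the 45 genes with at least 25% of their exonic 31-mers found elsewhere in the genome, 12 shared 15% or more of these words with at least 3 others. Of the 12, 9 lie side by side at the start of chromosome 9 (Gm10715, Gm10717, Gm10718, Gm10719, Gm10721, Gm10722, Gm11168, Gm17535 and Gm26870), Gm10800 and Gm10801 lie on chromosome 2 and Gm21738 on chromosome 14. The median share of repeated 31-mers was 94.5% in the family and 0.445% in the other Gm genes with an annotated sequence. A median of 98.0% of their exon bases was soft-masked as repeat in the assembly, against 12% in the others, and the median GC content was 35.7% against 47.4%. Shifted against itself, the gene body matched best at 234 bases in 9 of the 12, with an identity of 67.2% to 82.5% at that shift. Gm10715 matched best at 468 bases and Gm21738 at 351. Gm10801 had no clear period, with a best identity of 33.7%.

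One repeat unit of 234 bases is shown from each of 3 chromosomes, since the likeness between distant loci is what makes the genes a family and what makes their reads hard to place. Each is read on the strand of its gene, 5′ to 3′, on GRCm38, and capitals mark bases that differ from the unit of Gm10718. The units are at chr9:3023617-3023850 (plus strand) for Gm10718, chr2:98666747-98666980 (minus strand) for Gm10800 and chr14:19416876-19417109 (minus strand) for Gm21738.
Gm10718: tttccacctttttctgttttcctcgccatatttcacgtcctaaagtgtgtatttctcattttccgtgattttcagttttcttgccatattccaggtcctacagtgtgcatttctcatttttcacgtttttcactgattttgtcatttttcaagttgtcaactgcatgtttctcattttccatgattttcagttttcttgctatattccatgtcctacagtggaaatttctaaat
Gm10800: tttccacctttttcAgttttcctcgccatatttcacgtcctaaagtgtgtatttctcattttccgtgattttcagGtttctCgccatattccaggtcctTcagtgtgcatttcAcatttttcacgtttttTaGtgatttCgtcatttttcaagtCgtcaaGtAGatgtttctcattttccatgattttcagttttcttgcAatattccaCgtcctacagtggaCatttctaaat
Gm21738: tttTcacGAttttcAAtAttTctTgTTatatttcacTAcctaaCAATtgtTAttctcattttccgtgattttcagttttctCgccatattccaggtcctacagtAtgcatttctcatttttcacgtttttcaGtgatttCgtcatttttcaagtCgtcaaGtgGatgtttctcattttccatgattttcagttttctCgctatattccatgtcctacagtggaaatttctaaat
The unit of Gm10800 differed from that of Gm10718 at 15 bases (93.6% identity), and the unit of Gm21738 at 26 bases (88.9% identity). Across the other 7 plus-strand genes of the chromosome 9 block the best unit was 95.7% to 99.6% identical. Gm26870 crosses the whole block on the minus strand, so it holds the complement of this unit, and Gm10801 likewise carried its best match, at 69.2% identity, on the strand opposite the gene. Both strands of the repeat are thus represented by listed genes. The word GGAC, searched on the strand of the gene, occurred 5.16 times per kilobase of exon in the family and 3.60 times in the other 285 Gm genes with a sequence. That difference rested on Gm26870, without which the family had 3.69 per kilobase. In exon windows of 234 bases, 86.1% of 36 windows held it in the family (82.1% of 28 without Gm26870) and 50.6% of 1937 windows elsewhere. On the opposite strand these shares were 100% and 50.9%. The windows of the family are copies of each other, so they are few independent sequences.

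The satellite-like genes covered a wide range of levels and had among the highest ratios of the table. Gm10800 read 820, 748 and 850 RPKM in METTL3-RIP replicates 1 to 3 and 7.46, 5.40 and 4.84 RPKM in input, a log2 fold change of 6.89 ± 0.20 (SE, n = 3 per group, limma adjusted p = 1.37e-07). Its neighbour Gm10801 read 124, 116 and 135 RPKM against 2.08, 0.744 and 0.540 RPKM. Gm21738 read 94.7, 73.3 and 76.8 RPKM against 0.193, 0 and 0.200 RPKM, so that 1704 METTL3-RIP reads faced 4 input reads. In all of these the groups stood far apart, and METTL3-RIP libraries differed among themselves by much less than they differed from input. On chromosome 9, Gm10718 had 45.14, 47.96 and 49.98 RPKM in METTL3-RIP and 0.193, 0.551 and 0.299 RPKM in input. Gm26870, the antiparallel lincRNA model, had 38.5, 37.3 and 42.1 RPKM against 0.634, 0.372 and 0.505 RPKM. The remaining chromosome 9 genes descended from Gm17535 (28.0, 27.2 and 29.6 RPKM against 0, 0 and 0.506 RPKM) to Gm10721. Gm10721 read 3.66, 1.71 and 0.886 RPKM against 0 in every input library, on 41 METTL3-RIP reads, and its libraries spread most of the family with a CV of 68.3%. The median CV over METTL3-RIP libraries was 7.46% in the family, whose genes had a median of 723 reads, and 21.7% in the other Gm genes, which had a median of 98.

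The median log2 fold change of the family was 4.14, against 1.67 over the remaining 299 Gm genes and 1.72 over all listed genes. With the libraries centred on the median of the table, 10 of the 12 were called higher, beside 39.4% of all listed genes, with Gm10717 and Gm10721 the exceptions, both lower on that scale (down to -0.24) without passing the threshold. With quantile normalization, 10 of 12 were called higher, beside 6.41% of all listed genes, with Gm10721 and Gm10722 the exceptions. Of 1634 listed genes with at least 20 input reads, Gm26917 had the highest ratio of mean RPKM, Gm10800 ranked 2, Gm10801 3, Gm26870 5 and Gm11168 6, and these were the only family members with that many input reads. The median log2 ratio was 3.61 over all 71 Gm genes with 20 input reads or more and 3.63 over listed genes. How reads that map to several places were counted is not stated, so the division of reads among the 12 is uncertain, and genes of the block share exon bases on opposite strands. Of the exon bases of Gm17535, 42.9% lie opposite exons of Gm26870.

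**Figure D2:**
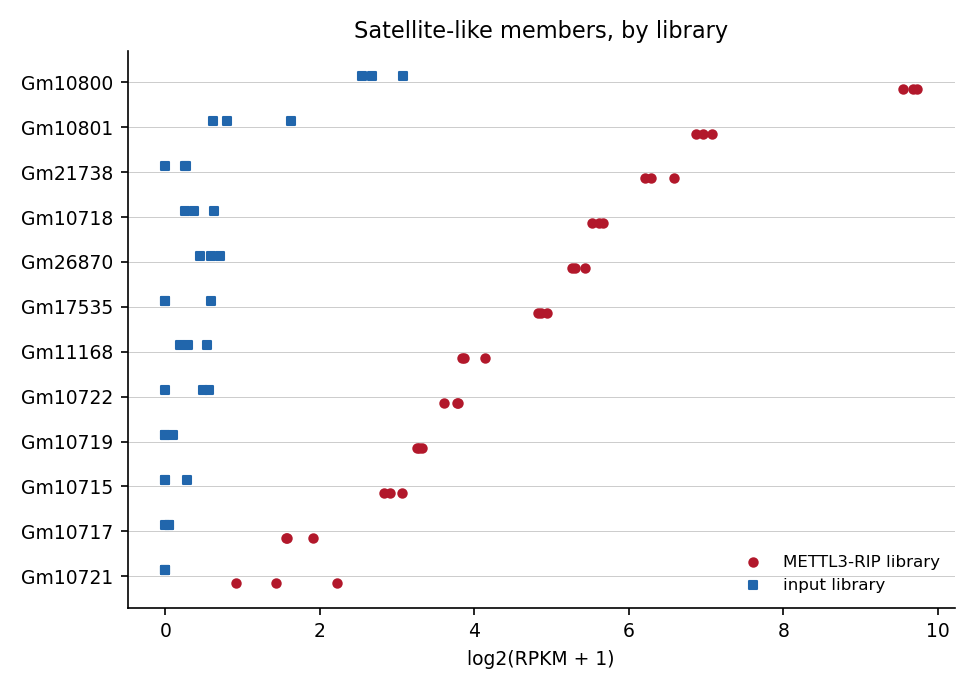
Level of each of the 12 satellite-like genes on the log2(RPKM + 1) scale (horizontal axis), with 1 point per library, circles for METTL3-RIP and squares for input, ordered by mean METTL3-RIP level. The groups do not overlap for any of the 12 on the deposited scaling, as in 99.8% of all listed genes, and Gm10721 shows the widest METTL3-RIP spread (CV 68.3%).

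Outside the family, 33 genes were also rich in repeated sequence, and processed pseudogenes supplied most of them. Of 31 processed pseudogenes, 17 had at least 25% of 31-mers elsewhere, and the class median was 25.6%. Gm12568, the most abundant by reads (273 in METTL3-RIP), read 13.8, 14 and 14.7 RPKM in METTL3-RIP and had no read in any input library, which with a floor of 3 reads over the input group made it at least 136-fold higher. It lies in Cyfip2, on the same strand, and 68.0% of its 31-mers recur elsewhere. Gm11737, in Cyth1, read 16.6, 16.2 and 11.6 RPKM against 0, 0 and 0.291 RPKM, and 6.85% of its words recur. Gm4017, a pseudogene within the Y-linked helicase gene Ddx3y, read 8.81, 9.23 and 9.52 RPKM against 0.194, 0.185 and 0.603 RPKM. The CV over METTL3-RIP libraries was 3.14% in Gm12568, 3.88% in Gm4017 and 18.9% in Gm11737, and input rested on 5 reads or fewer in each. Gm10974, a coding model of 126 bases opposite Lrrk1 whose 31-mers all recur elsewhere, read 103, 60.3 and 49.7 RPKM against 5.21, 2.98 and 4.86 RPKM. Gm12229, a pseudogene in Cdc42se2 with 72.8% repeated words, read 2.05, 2.22 and 6.15 RPKM with no input read, and replicate 3 stood apart from the others.

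Annotation placed the 311 genes in many classes. GENCODE M21 had an entry for 297 and none for 14. Antisense genes were the largest class (103), followed by TEC (46), lincRNA (35), protein-coding (33), processed pseudogenes (31), processed transcripts (21), sense intronic (13) and snoRNA (5), and the remaining classes had 2 genes each. Median log2 fold changes ran from 1.18 in TEC and 1.27 in sense intronic genes through 1.48 in processed transcripts, 1.51 in lincRNAs, 1.79 in antisense genes and 1.81 in processed pseudogenes to 2.39 in coding models and 3.12 in snoRNAs. The median METTL3-RIP level gave the same order, from 1.45 RPKM in TEC to 25.97 RPKM in snoRNAs, and the scale compresses low genes. On recovered reads (limma voom) the order was largely turned around, with median log2 fold changes of 3.81 in snoRNAs, 4.35 in coding models, 4.37 in antisense genes, 4.49 in lincRNAs, 4.54 in TEC, 4.63 in processed transcripts, 4.69 in sense intronic genes and 4.97 in processed pseudogenes. The voom values of genes with no input read depend on the prior count. No order of the classes is therefore read from these medians. Input reads were lacking in all libraries for 11 of 31 processed pseudogenes (35.5%), 15 of 103 antisense genes (14.6%) and 1 of 33 coding models (3.03%). In classes of more than 5 genes, models of 1 exon were most common in TEC (46 of 46), processed pseudogenes (29 of 31) and sense intronic genes (7 of 13).

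**Figure D3:**
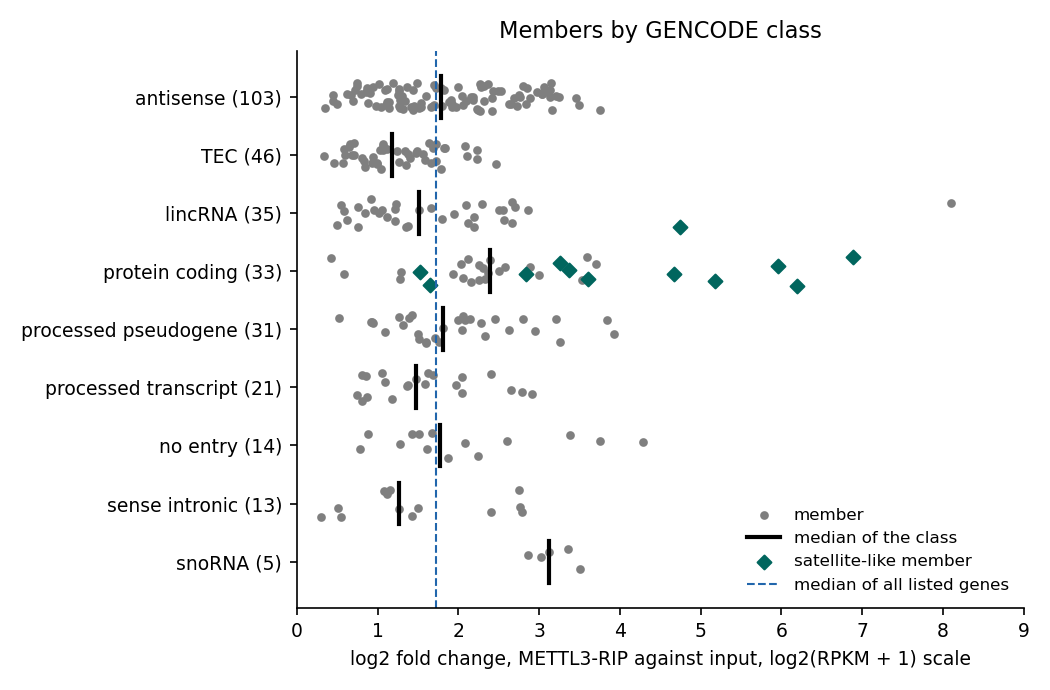
For each Gm gene, the log2 fold change between METTL3-RIP and input on the log2(RPKM + 1) scale (horizontal axis), in GENCODE classes with 3 or more genes (number in brackets), with class medians as black bars, satellite-like genes as diamonds and the median of all 2652 listed genes as a dashed line. Class medians run from 1.18 (TEC) to 3.12 (snoRNA), and Gm26917 at 8.10 and the satellite-like genes form the right tail; under centring the dashed line moves to about 0 and values to its left change sign, and with voom the class medians run instead from 3.81 (snoRNA) to 4.97 (processed pseudogene).

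A shared property not used in the choice was the company the genes keep. Of 103 antisense genes, 98 overlap a coding gene on the other strand, and in 51 of these (52.0%) such a coding gene was itself in the table. Among 1686 annotated antisense Gm genes of the same number ranges that were not in the table, 1549 overlap a coding gene on the other strand, and a listed one was found for 185 (11.9%). The same contrast appeared for genes inside a coding gene on their own strand. For TEC models it was 14 of 37 (37.8%) against 61 of 525 (11.6%), and for processed pseudogenes 6 of 22 (27.3%) against 64 of 629 (10.2%). In addition, 22 of 31 processed pseudogenes in the table (71.0%) lie in a coding gene on their own strand, against 7.75% of those not in the table, and for TEC models the shares were 80.4% and 46.6%. These are shares with no test. Of all annotated coding genes, 8.67% were in the table, and coding genes opposite the antisense members had a median exon length of 6534 bases against 3491 bases over all coding genes. The part of host length and host level in these shares was not tested.

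Antisense pairs show the levels on both strands. Gm29585, opposite Esyt1 (an endoplasmic reticulum membrane-tethering protein) and Zc3h10 on chromosome 10, read 84.31, 97.05 and 81.40 RPKM in METTL3-RIP and 8.71, 9.55 and 6.86 RPKM in input. Esyt1 read 122, 141 and 116 RPKM against 12.8, 12.7 and 9.46 RPKM. Gm20511 read 55.7, 61.4 and 56.8 RPKM against 7.63, 4.53 and 5.07 RPKM, and Fmnl1 on the other strand, which encodes a formin that builds actin filaments, read 86.4, 95.9 and 81.4 RPKM against 10.1, 7.60 and 5.80 RPKM. METTL3-RIP replicate 2 was highest on both strands in each pair, as it also was in Gm15886 with Hipk1 and in Gm10390 with Rbm19. It was highest too in Gm26917 and Gm340, while in Gm28379 with Herc1 replicate 3 was highest. In the pairs of Gm29585 and Gm20511 the coding gene was the higher. Gm15886 had the opposite order, with 40.4, 44.8 and 37.0 RPKM against 4.29, 3.69 and 4.01 RPKM in input, while the kinase gene Hipk1 read 16.2, 17.3 and 16.1 RPKM against 1.53, 1.68 and 1.83 RPKM. Gm28379 (mean 9.31 RPKM in METTL3-RIP) and the ubiquitin ligase gene Herc1 (10.2 RPKM) were close, and Gm10390 (2.26 RPKM) was below Rbm19 (6.07 RPKM). The log2 fold changes of the antisense genes in these 5 pairs were 3.25 ± 0.16, 3.16 ± 0.18, 3.06 ± 0.12, 3.03 ± 0.11 and 1.52 ± 0.13 (SE, n = 3 per group), and those of the coding genes were 3.34 ± 0.18, 3.36 ± 0.20, 2.71 ± 0.10, 3.02 ± 0.08 and 2.35 ± 0.12.

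The library kit keeps strand, but whether counting used strand is not stated, and without it reads of a gene and its antisense partner cannot be told apart. In 45 of the 51 genes with a listed coding partner some exon bases lie opposite partner exons, and in 6 none do. The median share was 18.8%. In 39 of the 45, the METTL3-RIP level of the antisense gene was above the level of its partner multiplied by the share of exon bases opposite partner exons. That product leaves out reads from partner introns, and in 33 of the 51 all exon bases lie within the body of the partner, so the part of partner reads in these levels was not tested. For Gm29585 that product was 36.7 RPKM against a level of 87.6 RPKM, and for Gm15886 8.46 RPKM against 40.7 RPKM. The product for Gm29585 covers only the 29.1% of exon bases opposite Esyt1 exons, while 64.2% lie opposite exons of any gene on the other strand. In 12 of the 51 the antisense gene was above the partner itself. Gm11583, with 100% of its exon bases opposite exons of Kpnb1, a gene not in the table, read 9.36, 4.46 and 2.91 RPKM against 0.564, 0.403 and 0.292 RPKM. Gm11131, partly opposite the histocompatibility gene H2-Q4, read 21.98, 20.72 and 17.90 RPKM against 1.998, 2.764 and 1.720 RPKM, with 28.1% of its 31-mers repeated. Only 16.8% of the exon bases of Gm11131 lie within the body of a gene on the other strand. Gm29480, opposite Gpc1, had 89 METTL3-RIP reads and none in input, at least 44.2-fold higher.

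**Figure D4:**
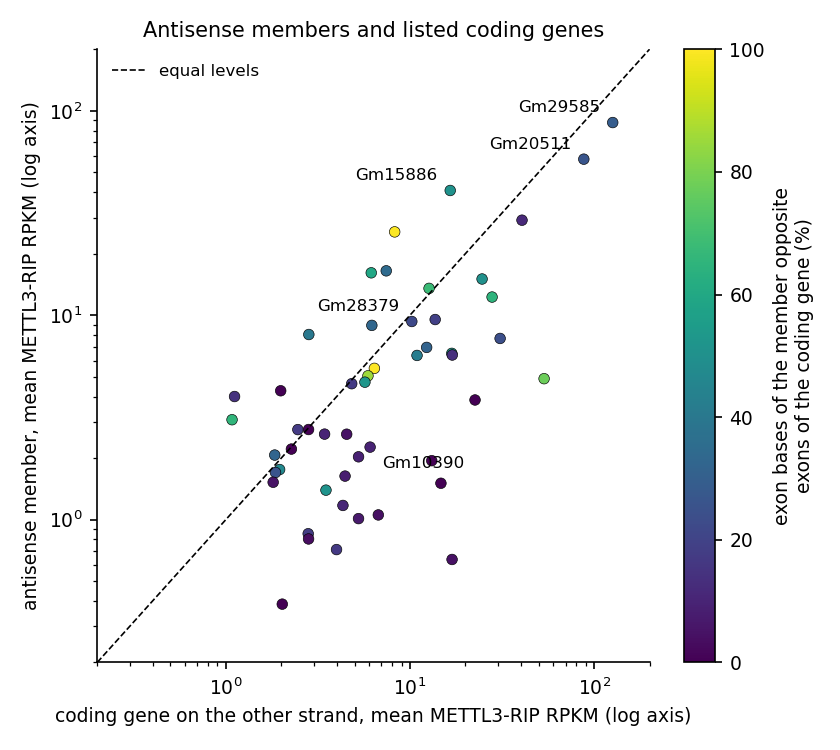
Mean METTL3-RIP level of each of 51 antisense Gm genes (vertical log axis, RPKM) against that of the listed coding gene on the other strand (horizontal log axis, RPKM), coloured by the share of exon bases opposite exons of that gene (%). Points above the dashed line of equal levels are the 12 antisense genes with a higher level than their partner, among them Gm15886.

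Genes that sit within other transcripts on the same strand cannot be separated from their hosts by reads alone. Gm27694, a model of 86 bases at chr19:5799000-5799085 on the minus strand, lies wholly within the exon of Malat1, an abundant nuclear long non-coding RNA that is not in the table. It read 1612, 1543 and 1434 RPKM in METTL3-RIP and 107, 116 and 128 RPKM in input, a METTL3-RIP level that did not differ from that of Gm26917 beyond the spread between libraries. Its ratio of 13.1 was far below the 333 of Gm26917 at a like level. Its whole sequence on the minus strand is given because every read counted there could be a Malat1 read.
Gm27694: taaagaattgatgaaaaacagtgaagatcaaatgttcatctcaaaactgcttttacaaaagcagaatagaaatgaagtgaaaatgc
The snoRNA model Gm26224 lies within annotated exon bases of Gas5, a host gene of small nucleolar RNAs, and read 55.8, 36.4 and 47.6 RPKM against 3.28, 5.47 and 5.95 RPKM. Gm26448, in an intron of the ribosomal protein gene Rpsa, read 44.0, 25.6 and 34.6 RPKM against 0.647, 3.08 and 3.35 RPKM. Their METTL3-RIP reads over 3 libraries were 115 and 217.

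Among 22 coding models outside the family, 11 had at least 80% of their exon bases in exons of other genes on the same strand, a layout known from readthrough models that join neighbouring genes. They held 9287 METTL3-RIP reads. Gm20388, whose exon bases all lie in exons of other genes in a long stretch of chromosome 8, had 2726 of them, at a mean of 22.6 RPKM in METTL3-RIP and 2.21 RPKM in input. Gm340, by contrast, shares no exon base with another gene on its strand and has no repeated 31-mer. It read 22.4, 26.2 and 23.9 RPKM against 1.85, 1.16 and 0.656 RPKM, a log2 fold change of 3.53 ± 0.19 (SE, n = 3 per group, limma adjusted p = 4.48e-07) that was 0.45 under quantile normalization (adjusted p = 0.149). Some processed transcripts also shared exon bases with other genes. Gm29103 (97.8% of exon bases in exons of other genes on the same strand, 17.4% in those of the listed transcription factor gene Elk4) read 29.9, 32.5 and 21.5 RPKM against 4.50, 2.51 and 1.82 RPKM. Gm44574 has 100% of its exon bases in such exons, 31.8% in those of the listed histone demethylase gene Kdm2b, and read 11.2, 15.2 and 7.16 RPKM against 0.337, 0.641 and 1.22 RPKM. Gm28373, in Itpk1, had 13.6% there and read 5.70, 6.68 and 4.07 RPKM against 0.121, 0.298 and 0.200 RPKM.

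Intronic and single-exon models followed at lower levels. Gm15472 lies in Ptpn22, a phosphatase gene of lymphocytes, and read 15.6, 17.1 and 11.6 RPKM against 1.86, 1.55 and 0.642 RPKM. Gm17024, in Ifrd1, read 8.89, 6.07 and 6.95 RPKM against 0, 0.395 and 0.322 RPKM. All 13 sense intronic genes lie in a coding gene on their strand, and that gene was in the table for 4 (30.8%). Of 174 sense intronic Gm genes not in the table, 164 (94.3%) lie in such a gene, and it was listed for 31 of these (18.9%). Of the TEC models, Gm44292 in Mxd1 had 6.88, 6.60 and 4.69 RPKM against 0.222, 0.661 and 0.604 RPKM. Gm45053 read 5.02, 5.54 and 4.95 RPKM against 0.263, 0.05004 and 0.0544 RPKM, opposite the retinol saturase gene Retsat (3.52, 3.62 and 3.04 RPKM against 0.0371, 0.124 and 0.0769 RPKM). Gm45223, in the endocytosis gene Picalm, had 3.064, 2.996 and 2.604 RPKM against 0.371, 0.0974 and 0.278 RPKM. For each of these the METTL3-RIP and input libraries did not overlap on the deposited scaling, as in 99.8% of all listed genes.

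Among genes with no GENCODE entry, Gm20417 was the fourth most abundant Gm gene, with 646, 585 and 622 RPKM in METTL3-RIP and 38.6, 49.1 and 47.7 RPKM in input, and Gm17305 followed with 167, 184 and 102 RPKM against 16.6, 13.7 and 9.92 RPKM. Gm13834 had no read in input and 17.9, 17.5 and 20.4 RPKM in METTL3-RIP, at least 39.2-fold higher on 79 reads. Lengths for these came from the values, so their read numbers are less certain, and no position is given.

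Spread between METTL3-RIP libraries was wider in genes with few reads. The median CV was 20.9% over the Gm genes and 15.5% over all listed genes, whose median reads were 102 and 360. Among Gm genes at or above the median level, the smallest CVs were those of Gm26749, opposite Birc6 (1.20%, with 7.04, 6.94 and 6.88 RPKM), and of Gm10719 (2.56%, with 8.57, 9.02 and 8.75 RPKM). The largest were those of Gm12229 (66.8%) and Gm11583 (60.4%), on 53 and 77 reads. Beside the Gm genes of the ranges set aside, those described here were higher in METTL3-RIP than the 206 of the TEC ranges (medians 2.73 and 1.33 RPKM) and lower than the 28 of the small RNA range (18.1 RPKM), whose models have a median of 122.5 bases against 1447. The share with no input read was 13.2% here, 18.9% in the TEC ranges and 21.4% in the small RNA range, and median log2 fold changes were 1.69, 1.15 and 3.50 on the log2(RPKM + 1) scale but 4.50, 4.61 and 4.41 with voom, where the gap between them was lost. These 3 groups differ in length and depth, and the differences were not tested.

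**Figure D5:**
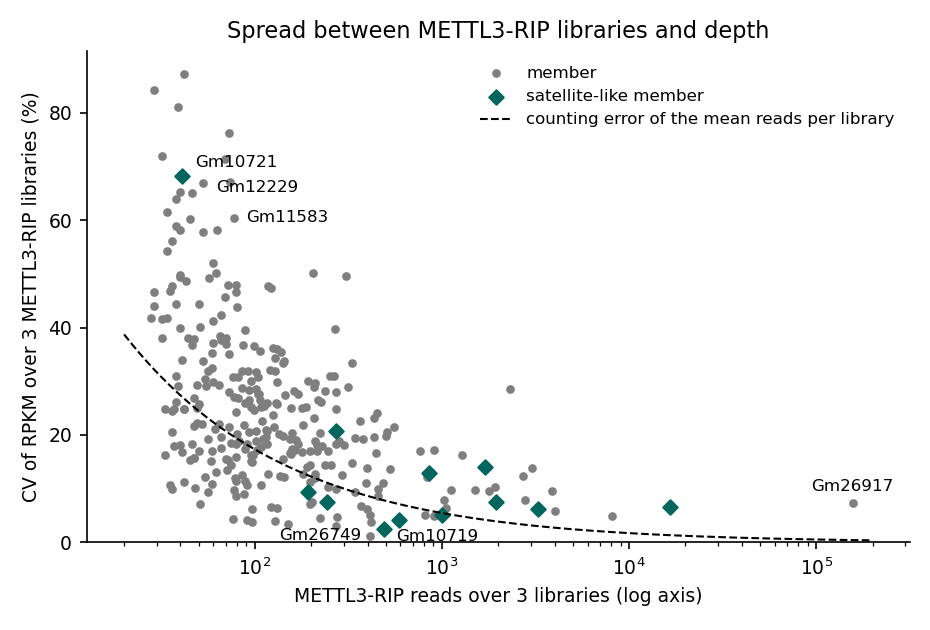
Coefficient of variation of RPKM over the 3 METTL3-RIP libraries (%, vertical axis) against METTL3-RIP reads summed over them (horizontal log axis) for each Gm gene, with satellite-like genes as diamonds and, as a dashed line, the counting error at the mean reads per library. Genes with few reads scatter most, such as Gm12229 at 66.8% on 53 reads, while Gm26749 has a CV of 1.20% and Gm26917 has a CV of 7.25% on 156818 reads.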

How the data were processed

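Reads were trimmed with Trimmomatic 0.36 and mapped to GRCm38 with STAR 2.5.3a by the authors, per the submitters' processing notes. The counter, annotation, use of strand and treatment of reads with several positions are not given in the sources used here. The authors deposited 1 table of 2652 genes with RPKM values per library, a unit inferred from the values. Columns with the authors' log2 fold change and p-value were not used, and they show that only genes higher in METTL3-RIP are listed.

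With exon lengths of GENCODE M21, 83.4% to 84.8% of values above 0 gave whole reads (tolerance 0.02 reads), which also gave the library totals. Annotated lengths served for 286 of 311 Gm genes, and the shortest length giving whole reads for 25. Intervals and floors cover counting error only. Fits used limma 3.58.1 in R 4.3.3 on log2(RPKM + 1), with lmFit and trended eBayes, two-sided, with Benjamini-Hochberg adjustment over the table, a scale that understates changes of low genes. The code was tested on simulated data. An exact permutation test of 3 against 3 cannot go below 0.1 and was not used. The main fit compared the groups without pairs, and every SE of the Results comes from it. Adjusted p values come from it too, except those given under centring or quantile normalization, which come from the fits with that scaling. Input and METTL3-RIP with the same number were taken as pairs only in the replicate block alternative, because the methods describe them as parts of a lysate. Deviations of same-numbered libraries from their group means correlated at -0.02, -0.02 and 0.08 over listed genes. With the number as a block 311 Gm genes were called, beside 2643 of all 2652 listed genes. 31-mers were counted on both strands of the assembly. Classes and positions are from GENCODE M21, on the build of the files. RefSeq matched 79 symbols.

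The members and lists were chosen with earlier results of these data known. Named are the 6 Gm genes highest by METTL3-RIP level and by reads, the leading 2 by each in a class of 3 or more, up to 12 with at least 25% repeated 31-mers, the 3 with most reads among those absent from input, the 2 largest and 2 smallest CVs at or above the median level, and the 5 leading antisense genes with a listed partner. Gm10721, Gm10715, Gm10717 and Gm20388, and the genes of sensitivity checks, were named after their values were seen. Alternatives were other pseudocounts, a filter on low values, centring, quantile normalization, the replicate block, leaving out each library, voom on recovered reads, other sets of members and RefSeq classes.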

Additional observations from a re-analysis of the deposited data

How the results depend on the processing

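The number of predicted Gm genes past the threshold stayed at 311 with pseudocounts of 0.1 and 5, with voom on recovered reads and with the replicate number as a block, where the median log2 fold change was 1.69. The block changed no other call among them. Of all 2652 listed genes, 2652 were called with a pseudocount of 0.1, 2645 with 5, 2652 with voom and 2643 with the block. Requiring a mean of 1 RPKM left 192 Gm genes, all called, as were all 1671 listed genes that it left. Quantile normalization called 52 (49 higher, beside 322 of all 2652 genes, 170 higher). Centring called 226 (109 higher, beside 2163 of all genes, 1044 higher). The median log2 fold change was 3.47 with a pseudocount of 0.1, 0.58 with 5, 2.28 after the filter, 0.11 with quantile normalization, 4.50 with voom and -0.069 with centring. Quantile normalization and centring remove the shift common to a table chosen for higher genes. Leaving out 1 library gave 309 to 310 calls, beside 2629 to 2644 of all 2652 genes, and medians of 1.69 to 1.74. Gm7694 was lost without METTL3-RIP replicate 1 or 2 or any input replicate, and Gm13357 and Gm15445 without METTL3-RIP replicate 3. Of 39 named genes, 13 had a negative difference with quantile normalization, not past the threshold except in Gm29585: Gm27694 (-0.46), Gm20417 (-0.80), Gm17305 (-0.38), Gm29585 (-0.56), Gm20511 (-0.54), Gm11131 (-0.46), Gm44292 (-0.12), Gm45223 (-0.16), Gm29103 (-0.40), Gm15472 (-0.21), Gm26224 (-0.59), Gm11583 (-0.12) and Gm15886 (-0.47). With centring, Gm29480 (-0.31) and Gm10390 (-0.24) were past the threshold and Gm45223 (-0.12) was not. With quantile normalization Gm29480 was higher and past the threshold (0.54). A further 11 lost their call with quantile normalization and 2 with centring. The share of METTL3-RIP reads on Gm genes (0.852%) was 0.794% with annotated lengths only, 0.747% without repeat-rich genes and 0.342% without Gm26917, an alternative chosen after seeing the data. The input share (0.0193%) was 0.0157%, 0.0174% and 0.0178%. Leaving out 1 library gave 0.826% to 0.866% in METTL3-RIP and 0.0190% to 0.01997% in input. RefSeq, which has no antisense class, gave 0 antisense genes in place of 103, and 4 coding genes in place of 33. Most of this is missing symbols. Of the 103, 72 had no RefSeq symbol match and 31 were lncRNA, and of the 33, 27 had no match. With a median of 6 input reads over 3 libraries, ratios of most Gm genes are imprecise.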
